A study of Homo sapiens with 39 samples.

Results

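The 40 genes described here belong to the cellular response to low oxygen and to glycolysis. They were taken by symbol from a fixed list, out of 60671 gene identifiers in the expression table, and all 40 were found there. RNA-seq libraries from A375 and WM115, 2 human melanoma cell lines, gave their levels in TPM, a unit of transcript abundance scaled to transcript length that sums to the same total in every library. In each line, unedited cells (WT) were set beside cells from which a SOX10 enhancer region had been deleted, either R1 (genotype R1_del) or R4 (genotype R4_del). SOX10 is the transcription factor that sets melanocyte identity. The A375 groups were WT with 4 libraries, R1 clone 1.1 with 3, R1 clone 1.2 with 4, R4 clone 4.1 with 4 and R4 clone 4.2 with 3. The WM115 groups were WT with 4 libraries, R1 clone 1.1 with 5, R1 clone 1.2 with 3, R4 clone 4.1 with 3, R4 clone 4.2 with 3 and clone 1.3 with 3. The labels of clone 1.3 conflict, since its name follows the R1 clones and its genotype field gives R4_del, so it was compared with WT under its own name and left out of every comparison between regions. Oxygen tension, cell density and medium at harvest are not given in the sources used here. The labels do not say whether libraries of a group came from separate cultures, so p-values measure the spread between these libraries, which may be technical. Libraries of 1 clone repeat that clone, and all clones of a line share the same WT libraries.

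Cells sense oxygen through prolyl hydroxylases (the EGLN proteins), which mark the α subunits of hypoxia-inducible factor (HIF-1α from HIF1A, HIF-2α from EPAS1) for destruction by the VHL ubiquitin ligase. When oxygen falls the subunits persist, pair with ARNT and bind hypoxia response elements, which raises transcripts for angiogenic factors, pH regulators, mitophagy receptors, glucose transporters and nearly every glycolytic enzyme. Control of HIF-1α is largely at the protein level, so the HIF1A transcript does not report HIF activity. In melanoma, PPARGC1A, the coactivator of mitochondrial biogenesis, is known as a target of the melanocyte factor MITF and separates more oxidative from more glycolytic cells.

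The core of a hypoxia response element is short enough to be read in the promoter itself. RefSeq promoter sequences (assembly GRCh38.p14) were matched for 36 of the 40 genes. The 250 bases before the start site were searched on both strands for the core, ACGTG or GCGTG, and for the E-box CACGTG or CATGTG, the kind of site bound by MITF and MYC. CACGTG contains the core, so these 2 motifs overlap, and overlapping matches were counted once. A core was present in 27 of the 36 promoters (75%), against 43.2% of all 35116 RefSeq promoters. An E-box was present in 9 of 36 (25%), against 15.2% of all promoters. The start used lay within 500 bases of the 5′ end of the gene's most abundant transcript for 29 of the 36 genes. A match is a description of these letters and not evidence of binding. The 4 sequences below are shown because CA9 and BNIP3 were among the genes that varied most between libraries of 1 group, and because LDHA and LDHB moved in opposite directions in the WM115 R4 clones. They run 5′ to 3′ on the gene's own strand, with matches in capitals.
CA9: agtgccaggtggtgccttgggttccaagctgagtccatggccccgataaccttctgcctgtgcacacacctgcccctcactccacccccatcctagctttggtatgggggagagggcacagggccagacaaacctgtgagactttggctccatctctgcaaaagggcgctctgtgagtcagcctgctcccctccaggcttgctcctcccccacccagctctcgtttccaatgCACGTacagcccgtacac
BNIP3: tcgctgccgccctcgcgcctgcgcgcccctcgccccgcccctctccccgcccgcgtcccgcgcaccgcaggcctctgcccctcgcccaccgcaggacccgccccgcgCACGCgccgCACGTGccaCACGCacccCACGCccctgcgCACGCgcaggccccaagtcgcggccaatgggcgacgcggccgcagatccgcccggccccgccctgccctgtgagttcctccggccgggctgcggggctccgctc
LDHA: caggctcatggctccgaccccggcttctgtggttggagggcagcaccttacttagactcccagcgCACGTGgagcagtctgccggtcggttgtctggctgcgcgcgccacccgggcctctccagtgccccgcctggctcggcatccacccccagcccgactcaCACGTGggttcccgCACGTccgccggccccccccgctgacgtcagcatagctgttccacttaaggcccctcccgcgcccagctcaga
LDHB: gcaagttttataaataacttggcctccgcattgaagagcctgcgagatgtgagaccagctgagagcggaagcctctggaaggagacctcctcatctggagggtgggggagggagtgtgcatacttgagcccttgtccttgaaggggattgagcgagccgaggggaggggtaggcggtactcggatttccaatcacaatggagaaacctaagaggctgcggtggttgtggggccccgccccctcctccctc
The CA9 window (chr9:35673678-35673927, plus strand) held 1 core, which began 18 bases before the start site. The BNIP3 window (chr10:131981924-131982173, minus strand) held 5 cores in a row, 1 of them an E-box. The LDHA window (chr11:18394313-18394562, plus strand) held 3 cores, 2 of them within E-boxes. The LDHB window (chr12:21657843-21658092, minus strand) held neither motif.

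The libraries differed in composition, both within groups and between them. Between 14128 and 16140 genes reached 1 TPM in the A375 libraries and between 14084 and 15528 in the WM115 libraries. Mitochondrially encoded transcripts took 0.968% to 4.92% of TPM in A375 and 4.71% to 19.4% in WM115. The WM115 WT libraries all lay between 13.7% and 15.6%, those of clone 4.1 between 5.24% and 10.8%, and those of clone 4.2 between 4.71% and 12.7%. Ribosomal protein transcripts took 11.1% to 12.8% of TPM in WM115 WT and 15.1% to 17.4% in clones 1.1, 1.2, 4.1 and 4.2. In clone 1.3 they took 10.6% to 16.8%. The part of this share in the differences from WT was not tested. Melanocyte and melanoma markers summed to 453 to 2105 TPM in A375, with 4 of the 9 under 1 TPM in every library, and to 42.8 to 3391 TPM in WM115. The lowest sum was in replicate 3 of WM115 clone 1.2, where SOX10 itself was at 9.56 TPM. Fibroblast markers summed to 4.81 to 21.8 TPM in A375 and to 374 to 866 TPM in WM115. Immune markers summed to 18.5 to 166 TPM in A375 and to 226 to 758 TPM in WM115. Keratinocyte markers summed to 59.4 to 121 TPM in A375 and to 38.8 to 88.7 TPM in WM115, with KRT5 at 0 in every WM115 library. Endothelial markers stayed at or below 3.01 TPM in A375 and 16.4 TPM in WM115. In bulk RNA, fewer cells of a type and less RNA per cell cannot be told apart.

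Each clone was compared with the WT of its line by limma on log2(TPM + 1), over every gene that reached 1 TPM in at least 3 libraries of the line. Differences are on that scale, which understates changes of low genes, and a gene is said to pass at a Benjamini-Hochberg adjusted p under 0.05 over all genes tested. In A375, 37 of the 40 genes were tested, since EGLN3, CA12 and PPARGC1A lay under the filter. In WM115 all 40 were tested. Across the 4 A375 clones 4 genes passed in at least 1 clone, and across the 5 WM115 clones 14 did. The share of all genes passing in at least 1 clone was not counted, so these counts do not set the lines apart. In single clones, up to 8.53% of all genes passed in A375 and up to 24.2% in WM115. The 14 include EGLN3, which met the filter only through WM115 clones 1.2 and 1.3.

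**Figure D1:**
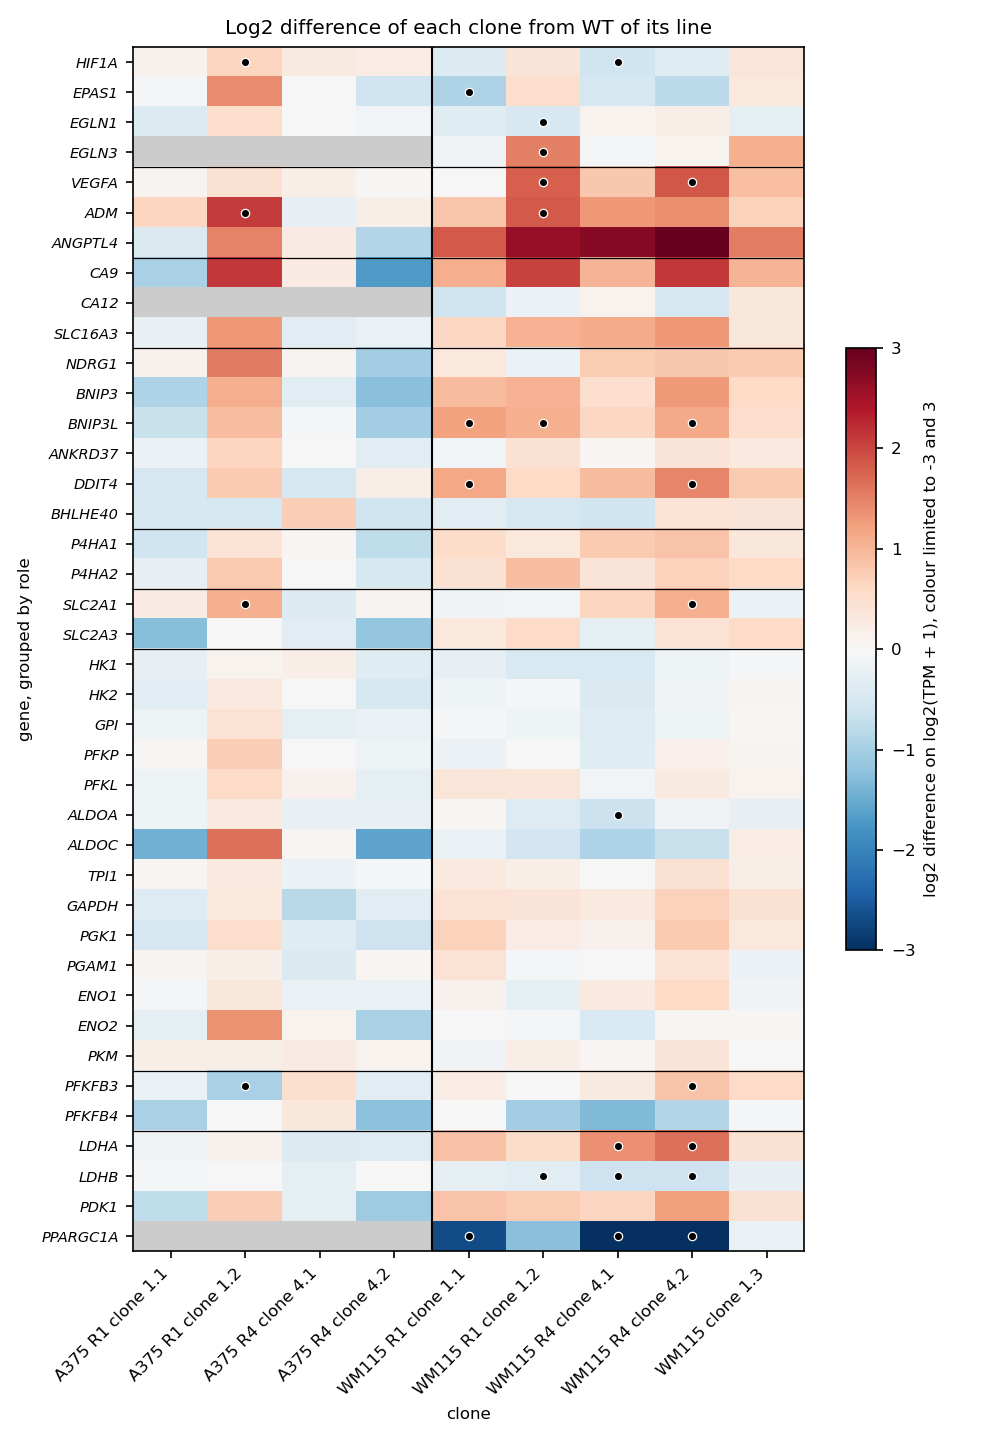
Log2(TPM + 1) difference from the WT of the same line for each of the 40 genes (rows, by role) in each of the 9 clones (columns); a dot marks an adjusted p under 0.05 and grey a gene that was not tested. Dots are few in A375, where only clone 1.2 has any (4), and in WM115 they sit mainly on LDHA, LDHB, PPARGC1A, BNIP3L, DDIT4 and VEGFA.

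In the unedited lines, HIF1A and SLC16A3 were higher in WM115, while GAPDH, PGAM1, TPI1, LDHA and SLC2A1 were lower there. Of 39 genes tested between the 4 WM115 WT and the 4 A375 WT libraries, 17 passed (9 higher and 8 lower in WM115), beside 47.9% of all 16126 genes tested (26.3% higher and 21.6% lower). The 9 higher include EPAS1, CA12 and PPARGC1A, which met the filter only through WM115. HIF1A, which encodes HIF-1α (ENSG00000100644, GRCh38 chr14:61695513-61748259), was at 158, 109.6, 131 and 161 TPM in A375 WT and at 1269, 1205, 869 and 917 TPM in WM115 WT. Every WM115 library was above every A375 library, and the difference was 2.92 (SE 0.18, adjusted p = 1.72e-06). EPAS1, which encodes HIF-2α, was at 3.14 ± 3.33 TPM (SD, n = 4) in A375 WT and 51.7 ± 19.0 TPM (n = 4) in WM115 WT, a difference of 3.93 (SE 0.53), given as a description.

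The carbonic anhydrase CA12 and the lactate exporter SLC16A3 (MCT4), which move acid across the cell surface, also differed widely between the unedited lines. CA12 was at 0.419 ± 0.322 TPM (n = 4) in A375 and 20.7 ± 6.07 TPM (n = 4) in WM115 (difference 3.91, SE 0.25). SLC16A3 was at 17.5 ± 5.35 TPM (n = 4) in A375 and 159 ± 41.1 TPM (n = 4) in WM115 (difference 3.13, SE 0.25, adjusted p = 9.25e-06). CA12, EPAS1 and PPARGC1A reached 1 TPM in 3 libraries only through WM115, so their tests could hardly have gone another way and their differences are a description. The vasodilator peptide gene ADM (1.43), the stress gene NDRG1 (2.18), the repressor BHLHE40 (0.90) and the glycolytic regulator PFKFB4 (1.16) passed as higher in WM115. The differences of NDRG1, BHLHE40 and PFKFB4 lost their call in 5 or 6 of the 8 fits that left out 1 library.

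Of the 14 glycolytic enzymes, the 3 that passed (GAPDH, PGAM1 and TPI1) were lower in WM115 WT, a share near the 21.6% of all genes that were lower. The median difference of the 14 was -0.14, and 6 of the 14 differences were above 0. GAPDH, which oxidises glyceraldehyde 3-phosphate, fell from 13164 ± 6044 TPM (n = 4) in A375 to 5073 ± 661 TPM (n = 4) in WM115, a difference of -1.29 (SE 0.29, adjusted p = 0.00462). PGAM1 (-0.81), TPI1 (-0.56), the glucose transporter SLC2A1 (-0.84), LDHA (-0.68) and PFKFB3 (-0.58) passed as lower too, as did BNIP3 (-1.66) and the HIF target ANKRD37 (-1.54). BNIP3 lost its call in 6 of the 8 fits that left out 1 library, LDHA in 5, SLC2A1 in 4 and TPI1 in 2. GAPDH, LDHA, PGK1 and PGAM1 have processed pseudogene copies, and how reads that match several places were treated is not given in the sources used here. PKM, LDHB, VEGFA and CA9 did not pass, with differences of -0.27, 0.02, 0.12 and 0.22. Scaling by the median of ratios gave 7 genes higher and 7 lower, and quantile normalization gave 9 and 5.

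Within groups, these genes varied more between libraries than most genes did. The pooled standard deviation of log2(TPM + 1) within groups had a median of 0.568 over the 37 genes tested in A375, against 0.302 over all genes tested. In WM115 it was 0.479 over the 40 genes, against 0.262. Of the 37 genes in A375, 18 lay above the 90th percentile of all genes, and of the 40 in WM115, 16 did. The inducible targets CA9, ANGPTL4, ALDOC and BNIP3 were near the top, and HIF1A and LDHB lay below the median of all genes in both lines.

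CA9, the membrane carbonic anhydrase that is a standard hypoxia marker (ENSG00000107159, GRCh38 chr9:35673856-35681159), had the largest spread of the 40 in both lines (SD 2.97 in A375 and 2.14 in WM115). In A375 WT it was at 82.4, 482, 4.04 and 1.88 TPM, a 256-fold range. A375 clone 1.1 gave 83.0, 28.9 and 0.113 TPM, clone 1.2 gave 342, 9.25, 159 and 377 TPM, clone 4.1 gave 88.6, 298, 23.5 and 0.784 TPM, and clone 4.2 gave 23.6, 15.3 and 0.539 TPM. Every A375 clone overlapped the WT range. In WM115 the WT libraries were close together at 26.7, 35.6, 38.3 and 26.3 TPM. The WM115 clones spread around them, with clone 1.1 at 137, 217, 76.4, 14.3 and 43.8 TPM, clone 1.2 at 29.5, 550.2 and 134 TPM, and clone 4.1 at 56.6, 82.8 and 56.5 TPM. Clone 4.2 was at 487, 489 and 10.5 TPM and clone 1.3 at 162, 560.1 and 2.04 TPM, so in each of them 1 library was below WT while the other 2 were above it. Only clone 4.1 lay wholly above WT. CA9 passed in no clone, and its largest differences were 2.13 (SE 1.86, adjusted p = 0.565) in A375 clone 1.2 and 2.12 (SE 1.46, adjusted p = 0.319) in WM115 clone 4.2.

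**Figure D2:**
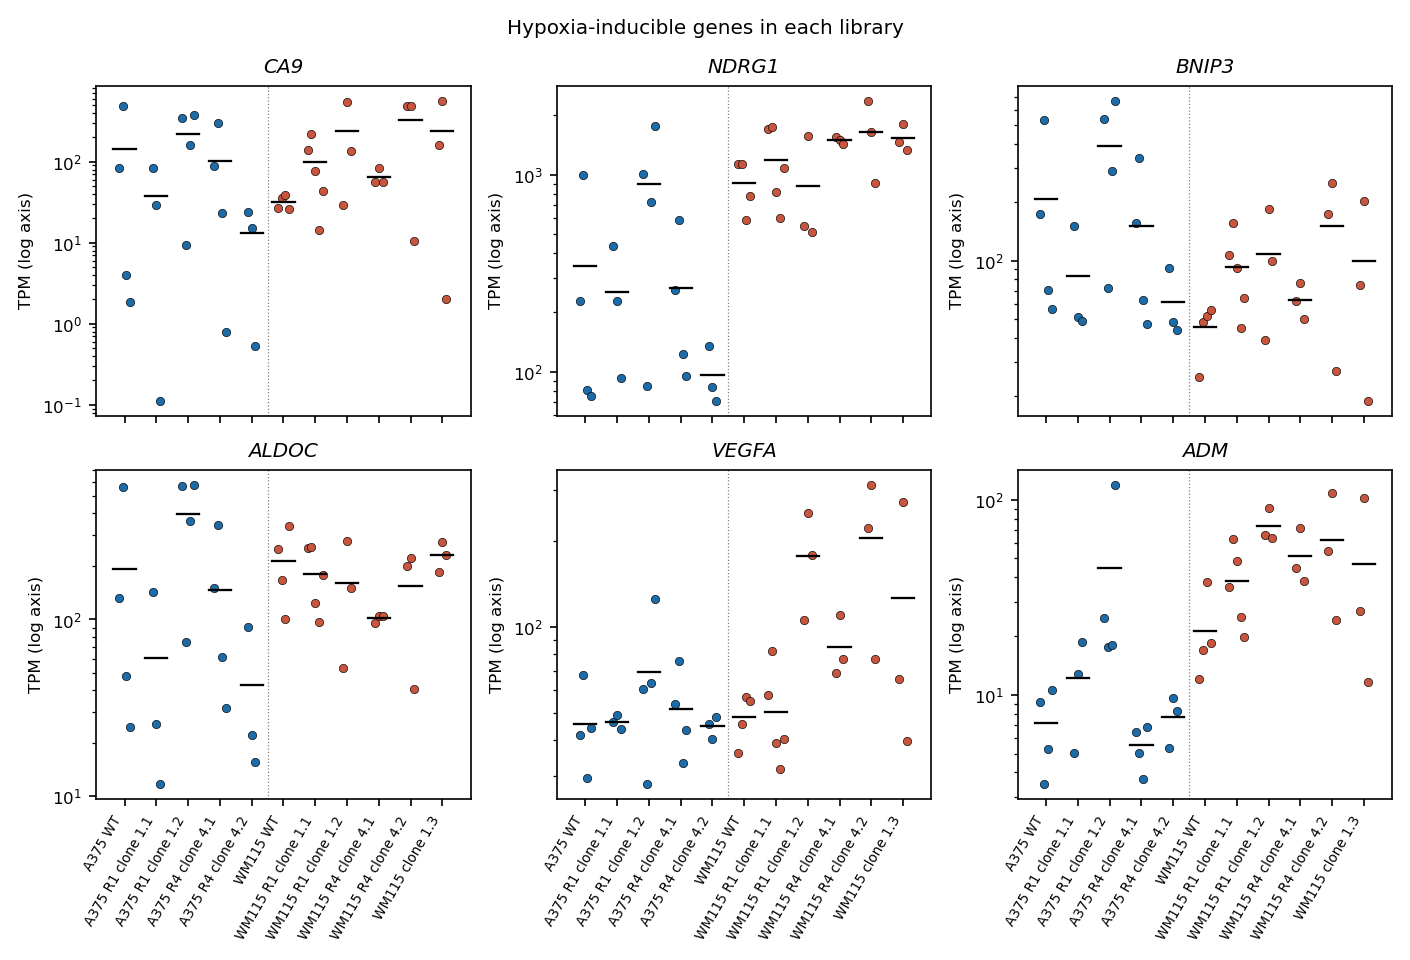
TPM (log axis) of CA9, NDRG1, BNIP3, ALDOC, VEGFA and ADM in each of the 39 libraries, by group; points are libraries, bars are group means, blue is A375 and red is WM115. Libraries of 1 group spread widely for CA9, from 1.88 to 482 TPM in A375 WT, and far less for VEGFA, from 29.4 to 67.6 TPM there.

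In several groups the same library was highest or lowest for many of these genes at once. Replicate 2 of A375 WT held the highest value of its group for 28 of the 37 genes tested (75.7%), against 31.2% of all genes tested. In A375 clone 1.2 replicate 4 was highest for 31 genes (83.8%, against 35.8% of all genes) and replicate 2 was lowest for 34 (91.9%, against 29.2%). In WM115 clone 1.2 replicate 2 was highest for 34 of 40 genes (85.0%, against 25.4%), and in WM115 clone 4.2 replicate 3 was lowest for 37 of 40 (92.5%, against 21.2%). Not every group held such a library: in WM115 WT no replicate was highest for more than 35% of the 40 genes (replicate 3, against 31.6% of all genes), and in WM115 clone 4.1 the largest share was 52.5% (replicate 2, against 31.5%). The genes are not independent of each other, and these shares describe libraries rather than test them. NDRG1, a stress-induced gene of the hypoxia signature, followed this pattern in A375 WT with 229, 993, 80.8 and 74.8 TPM. BNIP3, a mitophagy receptor, gave 175, 536, 70.2 and 56.4 TPM in the same order, and the aldolase ALDOC gave 132, 566, 47.6 and 24.5 TPM. In all 3 the second library stood far above the others. Among the 14 glycolytic enzymes the median spread was 0.403 in A375 and 0.354 in WM115, with ALDOC and the enolase ENO2 at the top and PKM at the bottom in both lines.

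**Figure D3:**
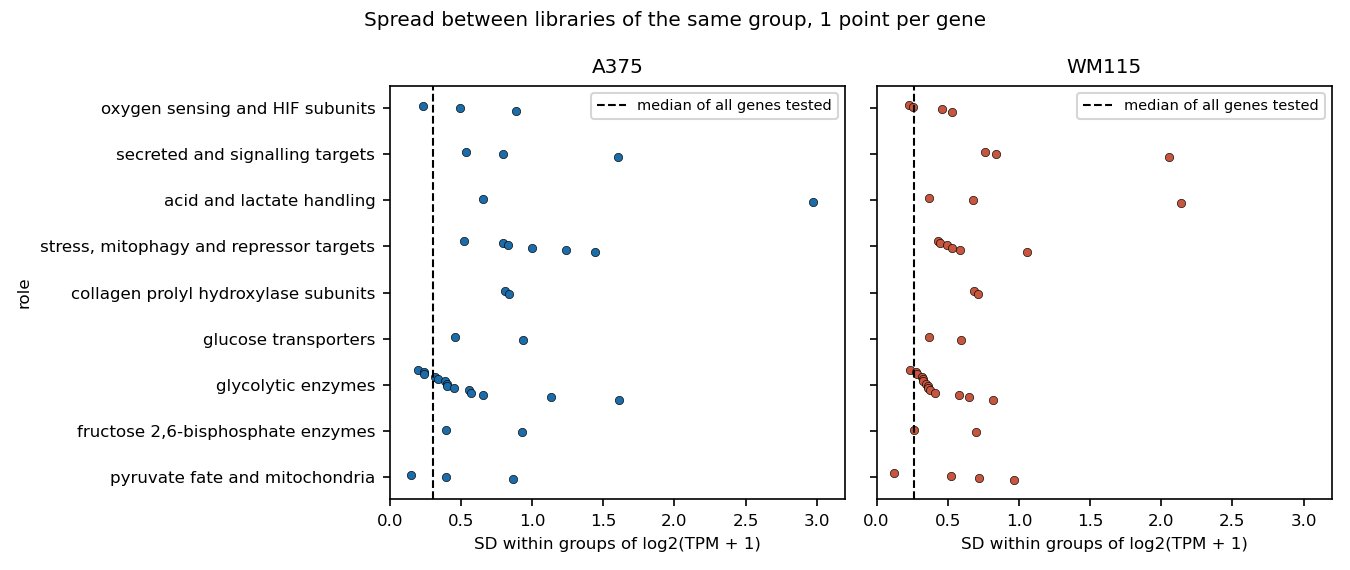
Pooled within-group standard deviation of log2(TPM + 1) for each gene, by role, in A375 and WM115; each point is a gene and the dashed line is the median over all genes tested (0.302 and 0.262). CA9 is the highest point in both lines, and LDHB lies below the dashed line in both.

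In A375, clone 1.2 was the only clone with genes that passed: 3 rose and 1 fell of 37 tested (10.8%), beside 8.53% of all 16692 genes (5.44% higher and 3.09% lower). The share is near that of all genes. Melanocyte markers summed to 542 to 697 TPM in this clone against 981 to 1693 TPM in WT, and fibroblast markers to 15.9 to 21.8 TPM against 6.85 to 14.3 TPM; their part in the results was not tested. The median difference of the 37 genes was 0.54, against 0.07 over all genes, and 33 of the 37 differences were above 0. SLC2A1, the GLUT1 glucose transporter (ENSG00000117394, GRCh38 chr1:42925375-42959176), was at 261, 245, 147 and 269.9 TPM in WT and at 531, 337, 424 and 634 TPM in clone 1.2. The groups did not overlap, and the difference was 1.06 (SE 0.30, adjusted p = 0.0345). ADM (ENSG00000148926, GRCh38 chr11:10304680-10307397) was at 9.18, 3.48, 5.30 and 10.6 TPM in WT and at 24.7, 17.6, 18.0 and 119 TPM in clone 1.2. It too was higher in every library of the clone, by 2.09 (SE 0.51, adjusted p = 0.0152), with 1 library far above the other 3.

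HIF1A in A375 clone 1.2 was at 171, 244, 240.1 and 215 TPM, all above the 4 WT values given earlier, a difference of 0.64 (SE 0.17, adjusted p = 0.0238). PFKFB3, which makes the allosteric activator of phosphofructokinase, moved the other way. It was at 105, 88.5, 79.3 and 74.7 TPM in WT and at 41.7, 32.8, 46.8 and 57.0 TPM in clone 1.2, without overlap (difference -0.96, SE 0.26, adjusted p = 0.0261). None of the 14 glycolytic enzymes passed, although all 14 differences were above 0 (median 0.33, from 0.10 to 1.65). Without WT replicate 3 no gene passed, and without replicate 3 of clone 1.2 only 1 did. HIF1A, SLC2A1 and PFKFB3 each lost their call in 5 of 8 fits that left out 1 library, ADM in 1 of 8, and none of the 4 passed among the libraries with a mitochondrial share under 2.5% (2 of clone 1.2 and 3 of WT).

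No gene passed in the other 3 A375 clones by the same test. In clone 1.1, 1.04% of all genes passed, 0 of the 37 genes had an unadjusted p under 0.05, and their median difference was -0.22 against 0.01 over all genes. In clone 4.2, 0.557% of all genes passed, again 0 of 37 had an unadjusted p under 0.05, and the median difference was -0.34 against 0.06. ALDOC had the lowest differences, -1.43 in clone 1.1 and, apart from CA9 (-1.70), -1.59 in clone 4.2. In clone 4.1, 1.31% of all genes passed, 3 of the 37 had an unadjusted p under 0.05, and the median difference was -0.02, the same as over all genes.

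Clone 4.1 of A375 was also fitted as a paired comparison, because its replicates 1 to 4 deviated together with the equally numbered WT replicates. With the replicate number as a block, 9 of 37 genes passed, 3 higher and 6 lower, beside 14.3% of all 15250 genes tested in that fit (7.94% higher and 6.37% lower). BHLHE40 (0.73, adjusted p = 0.00168), PFKFB3 (0.49, adjusted p = 0.00333) and HIF1A (0.27, adjusted p = 0.0245) were higher than WT. GAPDH (-0.83, adjusted p = 0.0098), DDIT4 (-0.54, adjusted p = 0.0174), PGAM1 (-0.43, adjusted p = 0.0215), LDHB (-0.30, adjusted p = 0.0245), SLC2A3 (-0.34, adjusted p = 0.0282) and SLC2A1 (-0.40, adjusted p = 0.0322) were lower. The pairs make the pattern of CA9 plain: 82.4, 482, 4.04 and 1.88 TPM in WT stood beside 88.6, 298, 23.5 and 0.784 TPM in the clone, and its difference was 0.25 (adjusted p = 0.742).

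In WM115 the share of the 40 genes that passed was at or below the share of all genes in each clone. In clone 1.1, 4 of 40 passed (2 higher and 2 lower; 10%), beside 22.0% of all 16997 genes (6.30% higher and 15.7% lower). In clone 1.2, 6 passed (4 higher and 2 lower, 15%), beside 22.6% of all genes (11.8% and 10.8%). The 4 higher include EGLN3, which met the filter only through clones 1.2 and 1.3 and is given below as a description. In clone 4.1, 5 passed (1 higher and 4 lower; 12.5%), beside 24.2% (8.59% and 15.6%). In clone 4.2, 8 passed (6 higher and 2 lower; 20%), beside 20.3% (6.71% and 13.6%). In clone 1.3 none passed, beside 1.06% of all genes, and 4 of 40 had an unadjusted p under 0.05. The median difference of the 40 genes was above that of all genes in each clone: 0.10 against -0.12 in 1.1, 0.21 against -0.02 in 1.2, 0.08 against -0.10 in 4.1, 0.42 against -0.10 in 4.2 and 0.33 against -0.03 in 1.3. Scaling by the median of ratios brought the median of all genes in clones 1.1, 4.1 and 4.2 from -0.12, -0.10 and -0.10 to -0.02, 0.00 and 0.00. Over all genes, that scaling moved the calls from 1070 higher and 2662 lower to 1776 and 1773 in clone 1.1, from 2011 and 1828 to 2163 and 1821 in 1.2, from 1460 and 2650 to 2192 and 1775 in 4.1, and from 1140 and 2309 to 1747 and 1679 in 4.2. Among the 40 genes, those that passed split into 3 higher and 1 lower in clone 1.1, 4 and 1 in 1.2, 3 and 2 in 4.1, and 7 and 2 in 4.2. Under quantile normalization the split was 2 and 3 in clone 1.1 and 2 and 4 in clone 4.1. Melanocyte markers lay wholly below WT (1463 to 3391 TPM) in clones 1.2 (42.8 to 1239 TPM) and 4.1 (1007 to 1358 TPM), and keratinocyte markers wholly above WT (40.4 to 58.7 TPM) in clones 4.1 (62.1 to 88.7 TPM) and 4.2 (61.7 to 81.0 TPM); their part in the results was not tested.

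The subunits of lactate dehydrogenase moved apart in the WM115 R4 clones. LDHA (ENSG00000134333, GRCh38 chr11:18394388-18408425) encodes the subunit that favours reduction of pyruvate to lactate. It was at 728, 1032, 1313 and 792 TPM in WM115 WT, at 3145, 2846 and 1612 TPM in clone 4.1 and at 3849, 3479 and 1909.6 TPM in clone 4.2. Every library of both clones lay above every WT library. The difference was 1.37 (SE 0.37, adjusted p = 0.0122) in clone 4.1 and 1.65 (SE 0.37, adjusted p = 0.00488) in clone 4.2. In clone 4.2 the call held in the 9 other settings and in the 7 fits that left out 1 library. In clone 4.1 it was lost with the set of high or low mitochondrial share as a term (0.82, adjusted p = 0.101), with the replicate block, and without replicate 1 (1.19, adjusted p = 0.0666) or replicate 2 (1.26, adjusted p = 0.0552). The median difference of genes within 10 Mb of LDHA was 0.35 in clone 4.1, and their part in the result was not tested.

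LDHB (ENSG00000111716, GRCh38 chr12:21635342-21757857), whose subunit favours the oxidation of lactate, fell in the same clones. It was at 832, 900.3, 844 and 869.8 TPM in WT, at 591, 563 and 534 TPM in clone 4.1 and at 635, 507 and 552 TPM in clone 4.2. The groups did not overlap, and the differences were -0.61 (SE 0.11, adjusted p = 0.000867) and -0.61 (SE 0.11, adjusted p = 0.00122). LDHB also fell in clone 1.2, at 729, 654 and 644 TPM (-0.35, SE 0.11, adjusted p = 0.0306; lost in 4 of 7 fits that left out 1 library). In clone 1.1 it was at 741, 717, 707, 704 and 709 TPM, below WT in every library without passing (-0.27, adjusted p = 0.0576). LDHA in clone 1.1 was at 2081, 2525, 2136, 1184 and 1170.5 TPM, with 3 libraries above WT and 2 within its range (0.88, adjusted p = 0.0585). The ratio of LDHA to LDHB, both in TPM, was 1.12 ± 0.314 (SD, n = 4) in WM115 WT, 4.46 ± 1.26 (n = 3) in clone 4.1 and 5.46 ± 1.78 (n = 3) in clone 4.2. Clone 1.1 gave a ratio of 2.54 ± 0.836 (n = 5), clone 1.2 gave 2.11 ± 0.625 (n = 3) and clone 1.3 gave 2.07 ± 1.12 (n = 3). In A375 the group means of the ratio ran from 1.33 to 2.11, with WT at 1.82 ± 0.546 (n = 4).

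**Figure D4:**
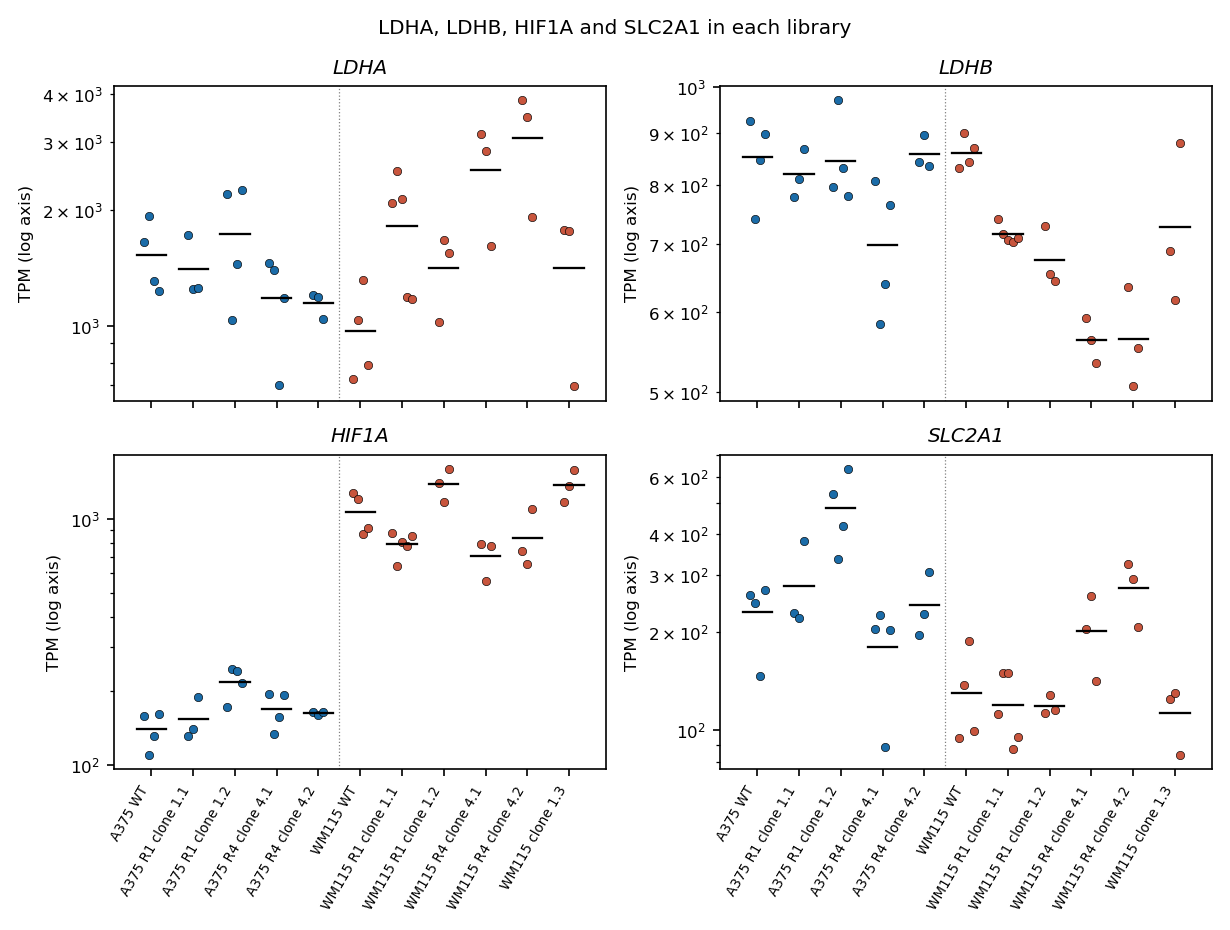
TPM of LDHA, LDHB, HIF1A and SLC2A1 in each of the 39 libraries, by group; points are libraries, bars are group means, blue is A375 and red is WM115. In WM115 clones 4.1 and 4.2 LDHA lies between 1612 and 3849 TPM, above the WT range of 728 to 1313, while LDHB lies between 507 and 635 TPM, below the WT range of 832 to 900.3.

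The R4 differences were also compared between the lines. Averaged over both R4 clones and tested as an interaction over all 18472 genes, 5 of 39 genes passed (2 higher and 3 lower in WM115 than in A375), beside 13.0% of all genes (4.61% higher and 8.36% lower). The interaction was 1.91 (SE 0.38, adjusted p = 0.000819) for LDHA, whose differences in A375 were -0.40 in clone 4.1 and -0.40 in clone 4.2. It was -0.47 (SE 0.13, adjusted p = 0.0121) for LDHB, whose difference in A375 was 0.01 in clone 4.2 and -0.30 in clone 4.1. The interaction does not use the pairing of A375 clone 4.1, in which LDHB had passed as lower, and its p-values rest on libraries of 2 R4 clones per line. GAPDH (1.07, SE 0.33, adjusted p = 0.0318) and HIF1A (-0.73, SE 0.22, adjusted p = 0.0262) passed as well. Leaving out 1 library ended the GAPDH call in 5 of 21 fits and the HIF1A call in 6 of 21. GAPDH also lost its call with no filter (adjusted p = 0.0712) and under quantile normalization (adjusted p = 0.0951). The split of 2 higher and 3 lower became 5 and 2 under scaling by the median of ratios, where the LDHB interaction lost its call (-0.33). Without replicate 3 of WM115 clone 4.2 the number of genes rose to 12, and without WM115 WT replicate 1 or 2 it fell to 3. For the R1 deletion, 1 of 39 genes passed the same test, as lower, beside 7.99% of all genes (4.62% lower).

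That gene was PPARGC1A (ENSG00000109819, GRCh38 chr4:23755041-23904089), which encodes PGC-1α and passed in the R4 interaction too. In WM115 WT it was at 15.5, 15.8, 2.045 and 16.9 TPM. It was at 0.879, 0.274, 0.293, 0.350 and 2.57 TPM in clone 1.1, at 0.406, 0.289 and 0.376 TPM in clone 4.1 and at 0.362, 0.190 and 0.293 TPM in clone 4.2. The R4 clones lay below every WT library, and clone 1.1 overlapped only the low WT replicate 3. The differences were -2.69 (SE 0.59, adjusted p = 0.00347) in clone 1.1, -3.03 (SE 0.67, adjusted p = 0.00348) in 4.1 and -3.12 (SE 0.67, adjusted p = 0.00376) in 4.2. Among libraries of high mitochondrial share the call was lost in clone 1.1 (-2.34, adjusted p = 0.160) and in 4.2 (-3.16, adjusted p = 0.0556). Clone 1.2, at 1.91, 7.16 and 3.19 TPM, did not pass (-1.26, adjusted p = 0.181), nor did clone 1.3, at 3.68, 3.67 and 40.3 TPM.

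No A375 library held more than 0.593 TPM of PPARGC1A, so a fall could not have been seen in that line. It entered the fit over both lines only through WM115, so its interaction, -2.19 (SE 0.46) for R1 and -3.19 (SE 0.47) for R4, restates the WM115 difference and does not test one line against the other. Of the genes counted in the interactions, 1 of 5 for R4 and the single gene for R1 are PPARGC1A. MITF, the melanocyte factor named above, was at 149, 139, 60.5 and 164 TPM in WM115 WT, at 11.2, 9.25 and 11.1 TPM in clone 4.1 and at 15.2, 15.8 and 18.3 TPM in clone 4.2. WT replicate 3 was the lowest of its group for both transcripts, and clone 1.3 replicate 3 was the highest of its group for both (40.3 TPM of PPARGC1A and 202 TPM of MITF). In clone 1.1 MITF was at 96.2, 51.0, 54.4, 55.6 and 98.1 TPM, and in clone 1.2 at 41.4, 88.4 and 6.16 TPM. Replicate 2 of clone 1.2 was likewise highest for both, but replicate 1 was lowest for PPARGC1A (1.91 TPM) and replicate 3 for MITF. In clone 4.2 replicate 1 was highest for PPARGC1A (0.362 TPM) and lowest for MITF. The part of MITF in the PPARGC1A values was not tested.

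**Figure D5:**
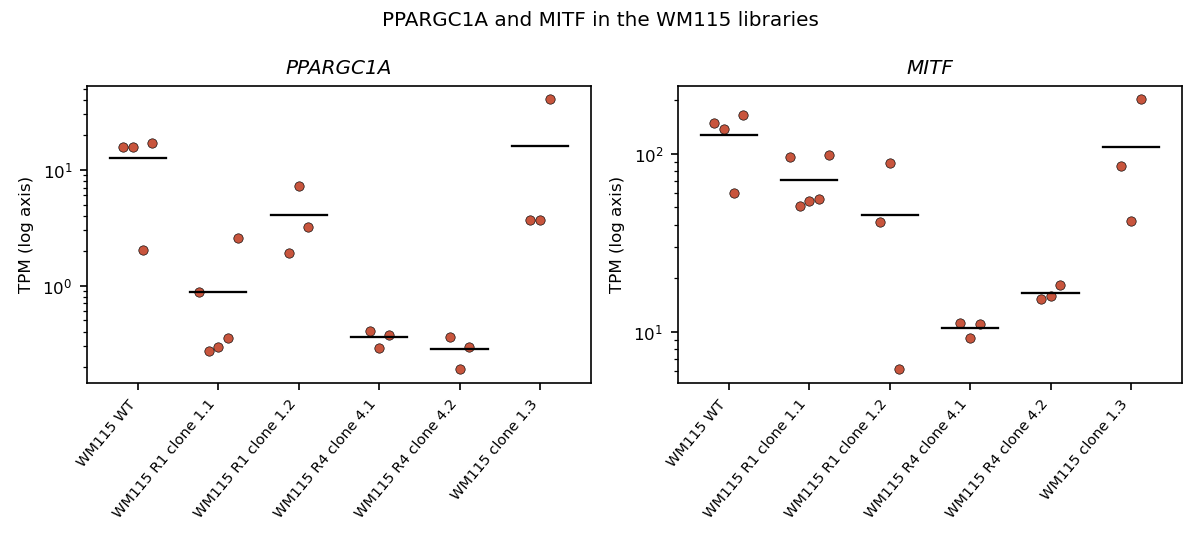
TPM (log axis) of PPARGC1A and of MITF, in separate panels, in each of the 21 WM115 libraries, by group. Points are libraries and bars are group means. The R4 clones 4.1 and 4.2 hold 9.25 to 18.3 TPM of MITF and 0.190 to 0.406 TPM of PPARGC1A. The 4 WT libraries lie above them in both panels.

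VEGFA, the main angiogenic factor (ENSG00000112715, GRCh38 chr6:43770184-43786487), rose in 1 clone of each region in WM115. It was at 36.1, 45.6, 56.6 and 54.7 TPM in WT, at 105, 248.96 and 177 TPM in clone 1.2 and at 221, 314 and 76.9 TPM in clone 4.2. All libraries of these clones were above WT, by 1.79 (SE 0.52, adjusted p = 0.0212) and 1.86 (SE 0.52, adjusted p = 0.0181). The call was lost in 3 of the 7 fits that left out 1 library in each clone. Among libraries of high mitochondrial share it was lost in clone 1.2 (adjusted p = 0.0613) and in 4.2 (adjusted p = 0.1305). Clone 4.1, at 68.8, 109.6 and 76.9 TPM, was also above WT in every library but did not pass (0.80), and clone 1.1 overlapped WT at 57.5, 82.1, 39.1, 31.6 and 40.4 TPM (-0.01). Clone 1.3 was at 65.5, 273 and 39.8 TPM. In A375 the 18 libraries lay between 28.0 and 125 TPM and no clone passed.

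ADM in WM115 was at 12.0, 16.9, 37.8 and 18.4 TPM in WT and passed only in clone 1.2, at 66.3, 90.8 and 63.3 TPM, without overlap (1.84, SE 0.58, adjusted p = 0.0287), a call lost in 5 of 7 fits that left out 1 library. It was at 44.8, 71.8 and 38.2 TPM in clone 4.1, also above WT throughout (1.31), and overlapped WT in the other clones. ANGPTL4, which inhibits lipoprotein lipase, had the largest difference of the 40 in WM115, 3.65 (SE 1.41) in clone 4.2, and did not pass (adjusted p = 0.073). It was at 4.29, 5.03, 16.2 and 2.98 TPM in WT and at 202, 216 and 13.4 TPM in clone 4.2. Replicate 3 of clone 4.2 alone fell within the WT range, as it did for BNIP3, with 25.2, 48.3, 52.0 and 55.5 TPM in WT and 175, 253 and 27.0 TPM in the clone. Without that library, the lowest of its group for 37 of the 40 genes, 20 genes passed in clone 4.2, 17 of them higher. Removing it could hardly have lowered these differences, and the share of all genes in that fit is not given here.

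Among the stress and mitophagy genes, BNIP3L and DDIT4 passed in WM115. BNIP3L (ENSG00000104765), a mitophagy receptor also called NIX, was at 34.0, 51.1, 35.4 and 46.2 TPM in WT. It was at 116, 133, 99.5, 57.8 and 91.5 TPM in clone 1.1 (1.2, SE 0.32, adjusted p = 0.0125) and at 57.5, 88.3 and 131 TPM in clone 1.2 (1.07, SE 0.37, adjusted p = 0.0423). In clone 4.2 it was at 117, 139 and 45.8 TPM (1.12, SE 0.37, adjusted p = 0.0365), where 1 library lay within the WT range. Clones 1.1 and 1.2 lay wholly above WT, as did clone 4.1 at 66.5, 69.5 and 56.6 TPM, which did not pass. Leaving out 1 library ended the call in 6 of 7 fits of clone 1.2 and 5 of 7 of clone 4.2, and in 0 of 9 of clone 1.1. All genes tested on its chromosome had a median difference of 0.41 in clone 1.1, and its neighbours within 10 Mb 0.37; their part in the result was not tested. The call in clone 1.1 was lost with the same mitochondrial term (0.89, adjusted p = 0.092), as was that in clone 4.2 (0.95, adjusted p = 0.069). DDIT4 (REDD1), which restrains mTORC1 under stress, was at 129.8, 175, 134 and 108 TPM in WT, at 409.6, 389.9, 318, 192 and 249.1 TPM in clone 1.1 and at 459.8, 454 and 251 TPM in clone 4.2. Both clones lay wholly above WT, by 1.15 (SE 0.30, adjusted p = 0.0115) and 1.47 (SE 0.34, adjusted p = 0.00647). Clone 4.1 did too, at 262, 254 and 264 TPM, without passing. In clone 1.1 the DDIT4 call was lost with the mitochondrial term (0.87, adjusted p = 0.0831) and within the libraries of high mitochondrial share (0.70, adjusted p = 0.364), and in clone 4.2 within those libraries (1.32, adjusted p = 0.0741). BNIP3, NDRG1, ANKRD37 and BHLHE40 passed in no clone of either line by the unpaired test, nor did the collagen prolyl hydroxylase subunits P4HA1 and P4HA2.

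The oxygen sensing genes passed singly in WM115. HIF1A was at 787, 561 and 775 TPM in clone 4.1, below all 4 WT libraries (-0.59, SE 0.19, adjusted p = 0.0323). Its call was lost in 4 of 8 other settings, among them scaling by the median of ratios (-0.46). Leaving out 1 library ended the HIF1A call in 3 of 7 fits. It did not pass in the other clones, at 876, 646, 803, 774 and 852 TPM in clone 1.1, at 1400.3, 1170.2 and 1593 TPM in 1.2, at 743, 653 and 1101 TPM in 4.2 and at 1174, 1362 and 1573 TPM in 1.3. EPAS1 fell in clone 1.1 (-0.92, SE 0.32, adjusted p = 0.049), from 61.6, 49.95, 25.8 and 69.4 TPM in WT to 39.2, 30.0, 18.3, 15.1 and 31.1 TPM, with overlap through WT replicate 3. It lost its call in 6 of 9 fits that left out 1 library. EGLN1, the main oxygen-sensing prolyl hydroxylase, was at 80.1, 79.6, 70.3 and 73.8 TPM in WT and at 53.1, 63.7 and 46.0 TPM in clone 1.2, without overlap. It fell there by 0.49 (SE 0.17, adjusted p = 0.0466) and lost its call in 6 of 7 such fits.

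EGLN3, the hydroxylase whose own gene is strongly induced by hypoxia (ENSG00000129521, GRCh38 chr14:33924231-34462774), was at 0, 0.102, 0 and 0.307 TPM in WM115 WT and at 0.722, 3.95 and 2.62 TPM in clone 1.2. It was at 0.963, 3.70 and 0.305 TPM in clone 1.3. All other WM115 groups stayed at or below 0.368 TPM, and A375 at or below 0.616 TPM. It passed the filter only through clones 1.2 and 1.3, so its difference of 1.52 in clone 1.2 (SE 0.34) is given as a description. Without replicate 3 of clone 1.2, the library with the lowest melanocyte markers, none of the 40 genes passed in that clone, and without WT replicate 1, 2 or 4 only 2 did.

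Of the glucose transporters, SLC2A1 rose in WM115 clone 4.2. It was at 94.8, 138, 188 and 99.5 TPM in WT and at 324, 292 and 207 TPM in clone 4.2, all above WT (1.1, SE 0.26, adjusted p = 0.00647). Clone 4.1, at 205, 258 and 142 TPM, overlapped WT (0.64), and the R1 clones lay within or near the WT range, at 87.8 to 151 TPM in clone 1.1 and 113 to 129 TPM in clone 1.2. In A375, SLC2A1 in clone 4.1 was at 205, 226, 88.8 and 203 TPM, in clone 1.1 at 229, 221 and 382 TPM and in clone 4.2 at 196, 227 and 307 TPM, all overlapping WT. SLC2A3 (GLUT3) passed in no clone by the unpaired test. PFKFB3 rose in WM115 clone 4.2, from 55.8, 67.5, 59.7 and 48.0 TPM in WT to 138, 98.5 and 83.4 TPM, without overlap (0.85, SE 0.19, adjusted p = 0.00531). Among libraries of high mitochondrial share the PFKFB3 call was lost (0.65, adjusted p = 0.0778). In A375 clone 1.2, as given above, PFKFB3 had fallen.

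By the unpaired test, ALDOA, the main aldolase, was the only 1 of the 14 glycolytic enzymes to pass in any clone, in WM115 clone 4.1. It was at 2344, 2398, 2406 and 2630.0 TPM in WT and at 1537, 1874 and 1300.0 TPM in the clone, without overlap (-0.65, SE 0.23, adjusted p = 0.0498). The median of all genes on its chromosome 16 was -0.46 in that clone, and the call was lost in each of the 7 fits that left out 1 library. GAPDH in WM115 was at 4505, 5135, 5980.1 and 4672 TPM in WT and its differences ran from 0.28 in clone 4.1 to 0.68 in clone 4.2, none of which passed. ALDOC had differences of -0.20 to -0.93 in the 4 WM115 clones assigned to a region and 0.23 in clone 1.3.

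PKM, which encodes pyruvate kinase (ENSG00000067225, GRCh38 chr15:72199029-72231822), was the steadiest of the 14 and passed in no comparison. In A375 it was at 2191 ± 209 TPM (SD, n = 4) in WT, 2454 ± 73.5 TPM (n = 3) in clone 1.1, 2488 ± 319 TPM (n = 4) in 1.2, 2665 ± 623 TPM (n = 4) in 4.1 and 2366 ± 73.4 TPM (n = 3) in 4.2. In WM115 it was at 1826 ± 306 TPM (n = 4) in WT, 1696 ± 266 TPM (n = 5) in clone 1.1, 2080 ± 235 TPM (n = 3) in 1.2, 1895 ± 348 TPM (n = 3) in 4.1, 2391 ± 543 TPM (n = 3) in 4.2 and 1797 ± 180.0 TPM (n = 3) in 1.3. Pyruvate kinase M1 and M2 arise from mutually exclusive use of exon 9 (GRCh38 chr15:72203022-72203188) and exon 10 (chr15:72202454-72202620), and tumour cells mostly use exon 10. Summed over the transcript table, transcripts with exon 10 made up 81.7% to 87.4% of PKM TPM in A375 and 80.8% to 86.0% in WM115. Those with exon 9 made up 1.21% to 1.88% and 1.19% to 2.23%, and the remainder held neither exon. The exon 10 share was thus high in every library of both lines.

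The 2 regions could be compared with the clone as the unit, since each line had 2 clones of each. Over these 8 clones, none of 39 genes passed and none had an unadjusted p under 0.05 in limma, beside 0% of all 18099 genes, of which 754 had an unadjusted p under 0.05. The largest differences of R1 over R4 among the 40 were 0.72 for EPAS1 and 0.70 for ADM. The differences from WT given above are those of single clones.

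Further genes of the same pathways, 84 in all, were read beside the 40. In A375, 76 were tested and none was lower in any clone. In clone 1.2, 7 were higher, beside 5.44% of all genes higher there. In clone 4.2, 0 were higher, beside 0.557% of all genes in either direction. In WM115, of 78 tested, clones 1.1 and 4.1 each had 2 higher and 14 lower, clone 1.2 had 14 higher and 9 lower, clone 4.2 had 10 higher and 12 lower, and clone 1.3 had none. Of all genes, 6.30% were higher and 15.7% lower in clone 1.1, 8.59% and 15.6% in 4.1, 11.8% and 10.8% in 1.2, and 6.71% and 13.6% in 4.2. In clone 1.3, 1.06% passed in either direction. In A375 clone 1.2 the collagen cross-linking enzymes LOXL2 (1.78) and PLOD2 (0.92), CITED2 (1.56), which limits HIF transactivation, and the pyruvate dehydrogenase phosphatase PDP1 (1.40) rose.

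In WM115, 7 of these further genes fell in 3 or 4 clones: PDHA1, PFKFB2, TKT, ESRRA, PPARGC1B, ENO3 and PFKM. Between 10.8% and 15.7% of all genes were lower in each clone assigned to a region, and the clones share the same WT libraries. How many of all genes were lower in 3 or more clones was not counted. PDHA1, the catalytic subunit of pyruvate dehydrogenase, fell in 4 clones by 0.51 to 0.85, from 227 ± 17.5 TPM (SD, n = 4) in WT to 126 ± 14.3 TPM (n = 3) in clone 4.2. PFKFB2, a further phosphofructokinase regulator, fell in the same 4 clones, those assigned to a region. ESRRA, a nuclear receptor partner of PGC-1α, PPARGC1B, a relative of PPARGC1A, and TKT, the transketolase of the pentose phosphate pathway, fell in 3 clones each, as did ENO3, an enolase, and PFKM, a phosphofructokinase. TKT differed from WT by -1.08 in clone 1.1, -1.57 in 4.1 and -1.17 in 4.2.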

How the data were processed

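The authors deposited gene and transcript tables of TPM (expression per transcript length, scaled to a fixed library total) for poly(A)-selected RNA, per the labels' protocols. DRAGEN and the genome build GRCh38 are named in the submitters' processing notes; their roles, versions, the gene annotation, strand setting and treatment of multi-mapping reads are not given in the sources used here. The deposited TPM table holds no read counts, so depth is unknown and no counting interval was given. Its 60871 lines hold 60671 identifiers (200 identical repeats were dropped), and 6 value columns that match no sample were not used.

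Here, log2(TPM + 1) was fitted per line with limma 3.58.1 (R 4.3.3; 1 coefficient per group, trended empirical Bayes) over genes at 1 TPM or more in at least 3 libraries, and p-values were adjusted over all of them. Lines were compared by an interaction term, and regions also over clone means. The same code was checked on simulated data. Positions come from GENCODE 29 and promoters from RefSeq. The genes and lists were chosen with earlier results of these data known. Values per library are given for genes that passed with the same direction in both clones of a region (1 or more on the log2 scale in either), for those that passed with at least 1.5 in any clone, and for SLC2A1, LDHA, PKM, HIF1A, VEGFA, CA9 and PPARGC1A; others were named after their values were seen. Of the other pathway genes, at most 8 per line were eligible, those that passed in the most clones. Some of their results are not reported here. Replicate numbers paired the samples only in A375 clone 4.1 against WT, where the deviations of equally numbered libraries correlated at 0.326 to 0.776 in all 4 pairs. Alternatives were another pseudocount (0.1), filter, scaling, fit, replicate block, a minimum difference, the mitochondrial share (a term, or libraries of 1 set; cut at 2.5% in A375 and 7.5% in WM115), and leaving out each library.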

Additional observations from a re-analysis of the deposited data

Results flagged for a closer look

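In groups of 4 or 5 libraries, a single library stood far from the others in 6 of the 50 cases tested, where chance flags about 1 in 20. These were ADM in replicate 4 of A375 clone 1.2 (119.212 TPM, the highest), CA9 in replicate 2 of A375 WT (481.671 TPM, the highest) and SLC2A1 in replicate 3 of A375 clone 4.1 (88.758 TPM, the lowest). PPARGC1A stood apart in replicate 2 of A375 clone 4.1 (0.401 TPM, the highest), replicate 5 of WM115 clone 1.1 (2.574 TPM, the highest) and replicate 3 of WM115 WT (2.045 TPM, the lowest).

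By the limma interaction, R4 clones differed from WT unequally between the lines for LDHA (1.909), GAPDH (1.067), HIF1A (-0.732) and LDHB (-0.4722). Values are the difference in WM115 minus that in A375 on the log2(TPM + 1) scale. They rest on libraries of 2 R4 clones per line. GAPDH and HIF1A lost their call in some of the fits that left out 1 library. PPARGC1A passed the same interaction for R1 (-2.193) and R4 (-3.188). It lay under 1 TPM in every A375 library and could not have fallen there, so its values are no test of a difference between the lines.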

How the results depend on the processing

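Over the 50 values that passed, 828 alternatives were run: 640 kept the call, 188 lost it and 0 changed direction. Of the counts of genes that passed, A375 clone 1.1 went from 0 to 1 with no filter. Percentages in brackets are the shares of all genes that passed in the same fit, and the other shares are not given here. A375 clone 1.2 went from 4 to 2 with a minimum difference of 1, 2 with no filter, 1 with the replicate block (2.74%) and 0 among libraries of low mitochondrial share. A375 clone 4.1 went from 0 to 1 with no filter, 1 with quantile normalization and 9 with the replicate block (14.3%). WM115 clone 1.1 went from 4 to 8 with only the 2 groups compared (29.3%) and 14 with the replicate block (33.7%), against 22.0% of all genes in the main fit. Among libraries of high mitochondrial share, over 7.5%, it went to 1. WM115 clone 1.2 went from 6 to 3 with no filter, 1 with the replicate block (0.807%) and 2 among the high-share libraries. WM115 clone 4.1 went from 5 to 2 with the minimum difference and 3 with no filter. It went to 18 with only the 2 groups (30.2%) and 8 with the replicate block (10.8%), against 24.2% of all genes in the main fit. WM115 clone 4.2 went from 8 to 3 among the high-share libraries and 10 with the replicate block (12.5%). The WT comparison went from 17 to 11 with the minimum difference, 11 with no filter and 13 with the replicate block (43%). The R1 interaction went from 1 to 0 with a mean of at least 5 TPM (PPARGC1A was then not tested), 2 with no filter and 2 with quantile normalization, and the R4 interaction from 5 to 3 with the minimum difference. Except in A375 clone 4.1, the replicate numbers share only a number, and in WM115 clone 1.1 the paired deviations correlated at -0.042 to 0.331.

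Leaving out 1 library gave 0 to 5 genes in A375 clone 1.2, 3 to 7 in WM115 clone 1.1 (7 without WT replicate 3), 0 to 5 in WM115 clone 1.2, 2 to 6 in WM115 clone 4.1 (2 without its replicate 2, 3 without its replicate 1 or WT replicate 1 or 2), 6 to 20 in WM115 clone 4.2 and 0 to 3 in clone 1.3 (3 without its replicate 3). It gave 10 to 21 in the WT comparison (10 without WM115 WT replicate 1, 11 without WM115 WT replicate 4 or A375 WT replicate 1), 1 to 2 in the R1 interaction (2 without A375 clone 1.1 replicate 1), 3 to 12 in the R4 interaction, and 0 in every fit over clones and in A375 clones 1.1, 4.1 and 4.2. In A375 clone 1.2 it gave 2 without replicate 1 or 4 of the clone or WT replicate 1, and in WM115 clone 1.2 it gave 3 without replicate 2 of the clone. The cause of these shifts was not tested, and the shares of all genes in these fits are not given here. The within-set fit could not be made for WM115 clone 4.1, with 1 library in the high set. Depth is unknown, so values near 0, such as EGLN3 and PPARGC1A in A375, carry no counting interval.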

Other observations

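MKI67, a proliferation gene, was at 23.2 TPM in replicate 2 of A375 WT, where CA9 was at 482 TPM, and at 43.7 to 113 TPM in the other 3 WT libraries. It was at 20.8 TPM in replicate 2 of A375 clone 4.1, where CA9 was at 298 TPM, and at 37.0 to 87.1 TPM in the other 3 libraries of that clone. In A375 clone 1.2, replicate 4, which held the highest CA9 value of its group (377 TPM), held the highest MKI67 value as well, 110 TPM. In A375 clone 1.1, replicate 1 held the highest CA9 value (83.0 TPM) and the lowest MKI67 value, 36.8 TPM against 91.5 and 105 TPM. In WM115, WT replicate 3 held the highest value of its group for both CA9 (38.3 TPM) and MKI67 (57.6 TPM), and so did replicate 2 of clone 4.1 (82.8 TPM of CA9 and 52.95 TPM of MKI67).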
